A study of Mus musculus with 10 samples.

Results

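The genes described here are those of the urokinase receptor system and of the stromelysin and collagenase metalloproteinases that are known from wounds, with an inhibitor of these enzymes. They are Plaur, Plau, Plat, Mmp10, Mmp3, Mmp13 and Timp1, 7 of the 35275 genes listed by the authors, found by their symbols, and each symbol has a single entry. They were chosen by measured values: Plaur was picked because it is higher in MYO5B-knockout than in control mice, and Mmp10 because it is higher in MYO5B-knockout mice given lysophosphatidic acid (LPA), a bioactive lysophospholipid. The levels of the 7 genes in the 3 groups are therefore a description, and no p-value is given for them. RNA of epithelial cells isolated from the jejunum was sequenced from 10 mice on day 4. Each mouse was of the C57BL/6 strain and carried VillinCreERT2;MYO5Bflox/flox, which is a Cre recombinase that tamoxifen activates, driven by the villin promoter of the intestinal epithelium, together with floxed alleles of Myo5b, the gene of the motor protein myosin Vb. The 3 control mice (numbers 2, 4 and 5) carried these alleles too and received corn oil alone, so exposure to tamoxifen separated them from all knockout mice. The 4 MYO5B-knockout mice (3, 5, 6 and 7) received 2 mg tamoxifen and a vehicle, and the 3 LPA-treated MYO5B-knockout mice (1, 4 and 5) received 2 mg tamoxifen and intraperitoneal LPA at 3 mg/kg. The description of LPA-treated mouse 1 names both a vehicle and LPA, and the mouse was placed by its title. The mice were adult at induction.

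Plaur encodes the urokinase receptor (uPAR), a protein of the Ly6 family that is held on the cell surface by a lipid anchor. It binds the serine protease urokinase (Plau), which cuts plasminogen to plasmin, and tissue-type plasminogen activator (Plat) makes the same cut, mostly on fibrin. Plasmin degrades fibrin and can activate secreted pro-metalloproteinases, among them stromelysin-1 (Mmp3), stromelysin-2 (Mmp10) and collagenase-3 (Mmp13), and Timp1 is a secreted inhibitor of such enzymes. In skin and gut wounds, migrating epithelial cells at the wound edge are known to make Mmp10, and stromal cells are among the sources of Mmp3 and Mmp13.

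The promoters of 4 members are shown because several of these genes are textbook targets of AP-1, the dimer of Fos and Jun proteins, which binds TGANTCA. RefSeq promoter sequences (GRCm38.p6, from 250 bases before to 50 after the start) were at hand for 5 of the 7 members, and 4 of them held TGANTCA on either strand. The motif was present in 7.81% of all 32851 promoters of the same length. The 120 bases before the start are printed in lower case, with TGANTCA and the TATA box TATAAA in capitals. The Plaur stretch lies on the plus strand at chr7:24462363-24462482, that of Mmp10 at chr9:7502222-7502341, that of Mmp3 at chr9:7445702-7445821 and that of Mmp13 at chr9:7272394-7272513.
Plaur: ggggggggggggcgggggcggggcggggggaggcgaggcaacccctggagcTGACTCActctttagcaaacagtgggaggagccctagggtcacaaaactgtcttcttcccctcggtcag
Mmp10: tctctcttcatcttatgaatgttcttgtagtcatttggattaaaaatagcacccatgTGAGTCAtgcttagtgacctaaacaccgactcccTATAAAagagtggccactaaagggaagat
Mmp3: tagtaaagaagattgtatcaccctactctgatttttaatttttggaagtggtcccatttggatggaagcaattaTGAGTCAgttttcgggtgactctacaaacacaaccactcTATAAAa
Mmp13: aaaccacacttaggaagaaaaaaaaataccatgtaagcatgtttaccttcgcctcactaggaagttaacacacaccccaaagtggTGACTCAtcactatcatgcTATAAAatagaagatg
The site began 69 bases before the start in Plaur, 63 in Mmp10, 46 in Mmp3 and 35 in Mmp13, and no TGANTCA lay in the 300 bases of Timp1. Plaur and Mmp13 held TGACTCA, and Mmp10 and Mmp3 held TGAGTCA, which is the same site read from the other strand. The TATA box stood downstream of the site in the 3 metalloproteinase promoters and in none of the other 2, and it was present in 13.6% of all promoters. A match of letters is a description and not a bound site.

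Levels are FPKM, the fragments on a gene per kilobase of its length and scaled to the fragments counted on genes. The 10 libraries held between 10949420 and 24470409 reads on genes. Myo5b lay between 16.5 and 32.0 FPKM in control mice, between 10.5 and 13.6 FPKM in MYO5B-knockout mice and between 10.3 and 11.7 FPKM in LPA-treated mice, without overlap between control and either knockout group but with limma's adjusted p = 0.115 and 0.0939. Few genes were detected in 2 libraries, 12242 in control mouse 2 and 12601 in mouse 3 of the MYO5B-knockout group, against 17309 to 18267 in the other 8, and mitochondrial genes took 17.4% and 18.0% of their reads, against 1.98% to 3.50%. All mice are labelled male, yet Xist was present, and 4 genes of the Y chromosome had 0 reads, in mouse 3 (vehicle) and mouse 1 (LPA) of the knockout groups. The intestinal epithelial markers Vil1, Epcam, Cdh1 and 9 others were present in every group, with a summed level between 11252 and 16913 FPKM.

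Plaur had the highest FPKM of the 7 genes in every mouse except control mouse 2 and separated the 3 groups without overlap. Plaur (ENSMUSG00000046223, chromosome 7 from 24462500 to 24475873) measured 1.17 FPKM in control mouse 2, 2.00 FPKM in mouse 4 and 1.72 FPKM in mouse 5. Vehicle-treated MYO5B-knockout mice 3, 5, 6 and 7 had 27.6, 29.6, 21.5 and 32.4 FPKM of Plaur. LPA-treated mice 1, 4 and 5 had 51.4, 81.1 and 55.5 FPKM. Every MYO5B-knockout mouse was above every control mouse, and every LPA-treated mouse was above every vehicle-treated MYO5B-knockout mouse. The means were 1.63 ± 0.424 FPKM (SD, n = 3), 27.8 ± 4.60 FPKM (SD, n = 4) and 62.7 ± 16.1 FPKM (SD, n = 3). On the log2 scale of FPKM + 0.1, Plaur was 4.03 higher in MYO5B-knockout than in control mice (95% interval 3.37 to 4.69) and a further 1.16 higher with LPA (95% interval 0.50 to 1.82). These values came from 103 reads on Plaur in the control libraries, 2768 in those of MYO5B-knockout mice and 4750 in those of LPA-treated mice. Without the 2 libraries with few detected genes, the log2 differences were 3.82 and 1.16, and without the 2 libraries whose sex genes go against the label they were 4.02 and 1.29.

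Plat, the activator of plasminogen that acts mainly on fibrin, was nearly undetected in control mice and followed the same order as Plaur. Plat (ENSMUSG00000031538, chromosome 8 from 22757744 to 22782847) was listed at 0 FPKM in control mouse 2, 0.0257 FPKM in mouse 4 and 0.0677 FPKM in mouse 5, which is 0, 1 and 3 reads. Among MYO5B-knockout mice given vehicle, mice 3, 5, 6 and 7 had 2.45, 10.8, 2.44 and 2.77 FPKM. With LPA, mice 1, 4 and 5 had 23.0, 14.9 and 24.4 FPKM. MYO5B-knockout mouse 5 stood above the other 3 vehicle-treated mice, and their mean was 4.62 ± 4.13 FPKM (SD, n = 4) with it and 2.55 FPKM without it. No group overlapped with another. Summed over libraries, Plat had 824 reads in MYO5B-knockout and 4 in control mice, a ratio of 127 per read on genes, with an exact 95% interval from 49.5 to 468 that covers counting error only. The fitted log2 difference was 4.88 (95% interval 3.64 to 6.12) and ranged from 2.22 with a pseudocount of 1 to 6.92 with a pseudocount of 0.01. With LPA it was a further 2.43 higher (95% interval 1.19 to 3.68). Without the 2 libraries with few detected genes these differences were 4.89 and 2.25, and without the 2 libraries whose sex genes go against the label they were 5.07 and 2.16.

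Plau, which encodes urokinase, the ligand of uPAR, stayed far below its receptor in every library. Plau (ENSMUSG00000021822, chromosome 14 from 20836662 to 20843388) was listed at 0 FPKM in control mouse 2, 0.111 FPKM in mouse 4 and 0.122 FPKM in mouse 5. Vehicle-treated MYO5B-knockout mice 3, 5, 6 and 7 had 0.507, 0.495, 0.0627 and 0.170 FPKM of Plau. The levels with LPA were 0.453, 1.38 and 4.90 FPKM in mice 1, 4 and 5. MYO5B-knockout mice overlapped with both other groups, whereas LPA-treated and control mice did not overlap. LPA-treated mouse 5 held the highest level, and the mean of that group was 2.25 ± 2.35 FPKM (SD, n = 3) with it and 0.917 FPKM without it. The log2 difference was 1.09 between MYO5B-knockout and control mice (95% interval -0.68 to 2.85), which includes 0, and 3.26 between LPA-treated and control mice (95% interval 1.37 to 5.14).

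**Figure D1:**
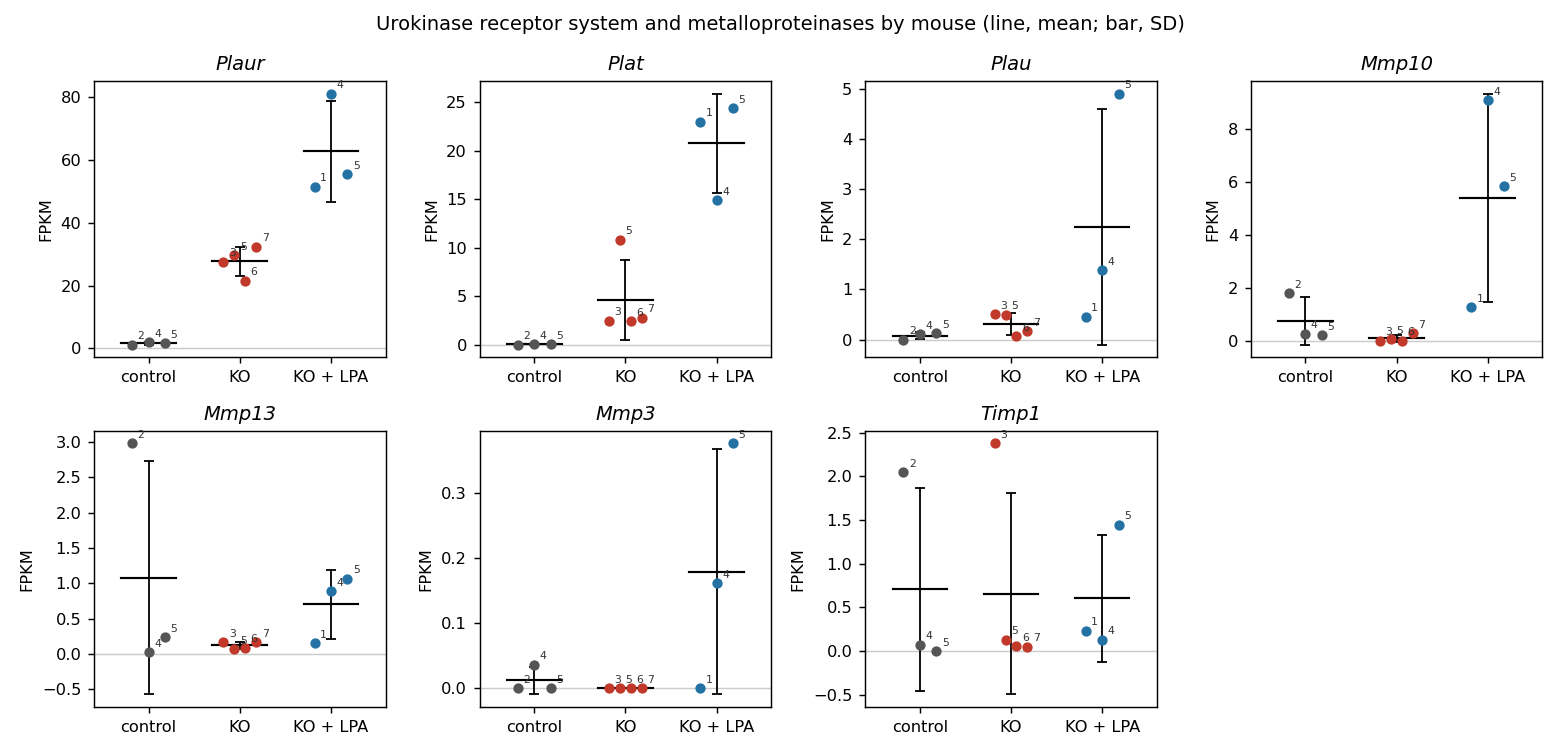
FPKM of the 7 genes (vertical axes, each with its own range) in every mouse, by group; points carry the mouse number, the horizontal line is the mean and the bar is the SD over the 3 control, 4 MYO5B-knockout (KO) and 3 LPA-treated mice. Plaur and Plat differ between all groups without overlap, Mmp10 is near 0 in MYO5B-knockout mice, and Timp1 is above 1 FPKM in control mouse 2, MYO5B-knockout mouse 3 and LPA-treated mouse 5.

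Mmp10, or stromelysin-2, had its lowest mean in MYO5B-knockout mice (0.0877 ± 0.134 FPKM, SD, n = 4) and its highest in LPA-treated mice (5.40 ± 3.94 FPKM, SD, n = 3). Mmp10 (ENSMUSG00000047562, chromosome 9 from 7502352 to 7510238) measured 1.79 FPKM in control mouse 2, 0.264 FPKM in mouse 4 and 0.199 FPKM in mouse 5. For vehicle-treated MYO5B-knockout mice 3, 5, 6 and 7 the listed FPKM of Mmp10 were 0, 0.0674, 0 and 0.284. LPA-treated mice 1, 4 and 5 had 1.26, 9.11 and 5.85 FPKM. Every LPA-treated mouse was above every vehicle-treated MYO5B-knockout mouse, while LPA-treated mouse 1 lay below control mouse 2. The Mmp10 reads numbered 458 in LPA-treated and 13 in MYO5B-knockout mice, a ratio of 45.5 per read on genes with an exact 95% interval for counting error from 26.3 to 86.1. The fitted log2 difference was 4.72 (95% interval 2.78 to 6.67), and 2.32 and 6.71 with pseudocounts of 1 and 0.01. Leaving out control mouse 2 and MYO5B-knockout mouse 3 gave 4.50, and leaving out the 2 libraries whose sex genes go against the label gave 5.31. Between MYO5B-knockout and control mice it was -1.89 (95% interval -3.84 to 0.05), and it was -1.05 without control mouse 2.

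Mmp13 and Mmp3, which lie beside Mmp10 in a row of metalloproteinase genes, were scarce. The row holds 10 genes over 427 kb of chromosome 9, of which 3 (Mmp13, Mmp10 and Mmp7) had a mean of at least 0.1 FPKM and 3 (Mmp1b, Mmp1a and Mmp27) were at 0 in every library. Mmp13 (ENSMUSG00000050578, chromosome 9 from 7272514 to 7283333), a collagenase, measured 2.98 FPKM in control mouse 2, 0.0243 FPKM in mouse 4 and 0.235 FPKM in mouse 5. Among MYO5B-knockout mice given vehicle, mice 3, 5, 6 and 7 had 0.171, 0.0650, 0.0915 and 0.166 FPKM. With LPA, mice 1, 4 and 5 had 0.153, 0.886 and 1.07 FPKM. All 3 groups of Mmp13 overlapped, and the control mean of 1.08 ± 1.65 FPKM (SD, n = 3) was 0.130 FPKM without control mouse 2. The log2 difference of Mmp13 between MYO5B-knockout and control mice was -1.21 (95% interval -3.39 to 0.98) and turned to 0.10 without that mouse. With LPA it was 1.60 higher than in vehicle-treated mice (95% interval -0.58 to 3.78), which includes 0.

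Mmp3, or stromelysin-1, was seen in 15 reads over the 10 libraries and was below the minimum of 0.1 FPKM for a fit. Mmp3 (ENSMUSG00000043613, chromosome 9 from 7445822 to 7455972) was listed at 0.0361 FPKM in control mouse 4, at 0.161 FPKM in LPA-treated mouse 4, at 0.376 FPKM in LPA-treated mouse 5, and at 0 in the other 7 libraries, the 4 of MYO5B-knockout mice among them. Its mean in LPA-treated mice was at least 1.77-fold higher than 3 reads in each MYO5B-knockout library, the level that a count of 0 allows. That mean rested on 5 reads in LPA-treated mouse 4 and 9 in mouse 5. LPA-treated mouse 1 had 0 reads, as the MYO5B-knockout mice did, so the groups overlapped. Mmp10 and Mmp3 are close relatives: 11.9% of the 31-base stretches of the Mmp10 transcripts also occur in Mmp3 transcripts, so that reads from these stretches could be split between them. Mmp13 shared none with either.

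Timp1, the inhibitor, differed between the 3 groups by less than the spread between mice. Timp1 (ENSMUSG00000001131, chromosome X from 20870166 to 20874735) was listed at 2.05 FPKM in control mouse 2, 0.0736 FPKM in mouse 4 and 0 FPKM in mouse 5. Vehicle-treated MYO5B-knockout mice 3, 5, 6 and 7 had 2.38, 0.131, 0.0554 and 0.0502 FPKM of Timp1. The levels with LPA were 0.231, 0.131 and 1.44 FPKM in mice 1, 4 and 5. The 2 highest libraries were those with few detected genes, whose part in these values was not tested. The log2 difference was 0.03 between MYO5B-knockout and control mice (95% interval -2.81 to 2.86), and 1.37 without control mouse 2 or -0.93 without MYO5B-knockout mouse 3. Timp1 overlaps Syn1, a neuronal gene on the other strand, which held 94 reads against 72 on Timp1, and the strand used in counting is not stated.

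**Figure D2:**
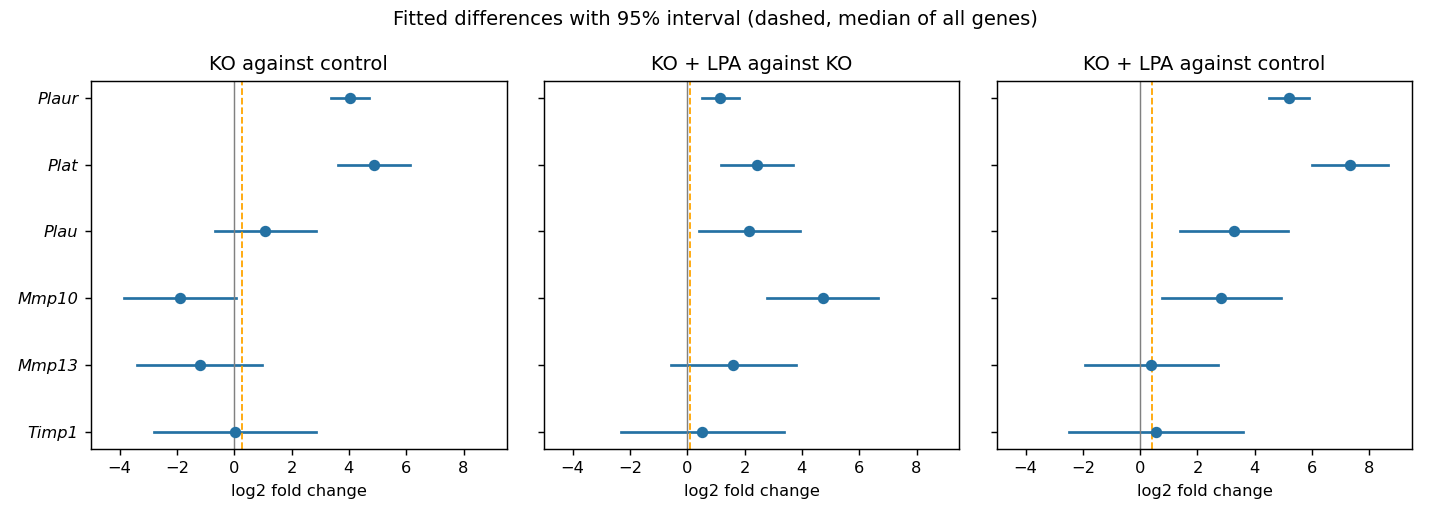
Log2 fold change (horizontal axis, from FPKM + 0.1) of the 6 fitted members in the 3 comparisons, with points for the limma estimate, lines for its 95% interval and a dashed line for the median of all 15729 genes. Plaur and Plat lie right of 0 in each comparison, Mmp10 reaches 4.72 with LPA, and the intervals of Mmp13 and Timp1 include 0 throughout.

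Of the 7 members, 6 had a mean of at least 0.1 FPKM and entered limma's fit of all genes. Between MYO5B-knockout and control mice, 2 members (Plaur and Plat) passed an adjusted p of 0.05, as did 2.01% of all genes, and since this difference in Plaur chose the members nothing is read from the count. Between LPA-treated and control mice the same 2 members passed, against 2.32% of all genes, and these groups share the control mice and the LPA-treated mice with the comparisons that chose them. Between LPA-treated and vehicle-treated MYO5B-knockout mice, limma called 0 of the 15729 genes (0%), with 459 genes at an unadjusted p under 0.05. On the recovered reads edgeR called 0 genes there too (0%), and DESeq2 called 7 (0.0445%). Mmp10 was among those 7, but its difference with LPA chose the members, so nothing is read from that call. In the other 2 comparisons edgeR called Plaur and Plat, with 2.82% and 2.4% of all genes called. DESeq2 called 4 members between MYO5B-knockout and control mice (11.6% of all genes), of which Plaur and Plat were higher and Mmp10 and Mmp13 lower in MYO5B-knockout mice (log2 differences of -3.69 and -3.75). The Mmp13 difference rested on control mouse 2, without which the control mean was 0.130 FPKM. The control mean of Mmp10 also depended on that mouse, at 0.751 FPKM with it and 0.232 FPKM without it. Between LPA-treated and control mice DESeq2 called Plaur, Plat and Plau (9.47% of all genes), which were higher. As with limma, nothing is read from the edgeR and DESeq2 calls of members.

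Groups did not overlap, with the first higher, for 2 of the 6 members between MYO5B-knockout and control mice (11% of all genes), for 3 between LPA-treated and vehicle-treated mice (3.56%) and for 3 between LPA-treated and control mice (20.5%). Without the 2 libraries with few detected genes, Plaur and Plat passed in both comparisons with control mice and Mmp10 passed between LPA-treated and control mice, against 6.52% and 9.98% of all genes. The members were chosen by values of these same mice, so nothing is read from these calls. The median log2 difference of all genes was 0.29, 0.11 and 0.41 in the 3 comparisons, and 0.04, 0.04 and 0.10 once each library was rescaled by median ratios, under which Plaur differed by 3.75, 1.08 and 4.83.

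No other gene of the plasminogen system passed limma's test. Of its 20 listed genes 15 were fitted, and none of the 12 that are not members passed an adjusted p of 0.05 in any comparison, with 0, 1 and 3 of them at an unadjusted p under 0.05. For these 12 edgeR called 0, and DESeq2 called 1, Lrp1, a fall from control to MYO5B-knockout mice. The median log2 difference of these 12 was 0.21 between MYO5B-knockout and control mice, beside 0.29 for all genes. With LPA against vehicle it was 0.39, beside 0.11. Anxa2 and S100a10, which form a plasminogen-binding complex on the cell surface, were among the abundant genes of the list. Anxa2 lay between 596 and 872 FPKM in control mice and between 877 and 1724 FPKM in MYO5B-knockout mice, without overlap but with limma's adjusted p = 0.307. S100a10 lay between 908 and 1179 FPKM in control mice and between 988 and 1548 FPKM in MYO5B-knockout mice (limma's adjusted p = 0.718). Both were named after their values were seen. Plg, the gene of plasminogen itself, which is made in the liver, did not exceed 0.515 FPKM.

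With all libraries, limma called no metalloproteinase and no metalloproteinase inhibitor in any comparison. Of 23 metalloproteinase genes 10 were fitted, 8 of them besides the members Mmp10 and Mmp13. The median log2 difference of these 8 was -0.04 between MYO5B-knockout and control mice, beside 0.29 for all genes, and 0.78 with LPA against vehicle, beside 0.11, where 6 of 8 were higher. At an unadjusted p under 0.05 limma had 1 of the 8 between MYO5B-knockout and control mice, 2 with LPA against vehicle and 1 between LPA-treated and control mice. For these 8 edgeR called 0 in each comparison, and DESeq2 called a fall of Mmp23 from control to MYO5B-knockout mice and Mmp2 higher in LPA-treated than in control mice. Mmp23 and Mmp2 were named after their values were seen. Mmp14, a membrane-bound activator of other metalloproteinases, reached 110 FPKM in control mouse 2, 96.7 FPKM in MYO5B-knockout mouse 3 and 109 FPKM in LPA-treated mouse 5, and lay between 12.8 and 36.0 FPKM in the other 7 mice. The 3 libraries near 100 FPKM are those in which Timp1 exceeded 1 FPKM. Mmp7, or matrilysin, a product of Paneth cells, was the other abundant one, between 17.4 and 63.0 FPKM, and the groups overlapped (limma's adjusted p = 0.455 between MYO5B-knockout and control mice). Of 5 inhibitor genes 3 were fitted. Timp2 lay between 0.0264 and 0.394 FPKM in MYO5B-knockout mice and between 0.320 and 1.82 FPKM with LPA, an overlap, with limma's adjusted p = 1.

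None of the 16 fitted receptors and uptake proteins that are known to work with uPAR passed limma's test, with 0, 1 and 4 of them at an unadjusted p under 0.05 in the 3 comparisons. For these edgeR called 0, while DESeq2 called a fall of Itgb5 and Lrp1 from control to MYO5B-knockout mice and Egfr higher in LPA-treated than in control mice, 3 genes named after their values were seen. The most abundant were Itga3 and Itgb1, the chains of a laminin-binding integrin. Itga3 lay between 32.3 and 50.1 FPKM in control mice, between 37.8 and 71.9 FPKM in MYO5B-knockout mice and between 60.9 and 88.7 FPKM in LPA-treated mice. LPA-treated and control mice did not overlap for Itga3, with a log2 difference of 0.77 (limma's adjusted p = 0.276). Itgb1 lay between 30.1 and 47.5 FPKM in control mice and between 44.8 and 78.3 FPKM in LPA-treated mice, which overlapped (limma's adjusted p = 0.524).

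Relatives of Plaur in the Ly6 family, small surface proteins with the same 3-finger fold, rose in MYO5B-knockout mice in some cases. By limma, 2 of 17 fitted family members rose and none fell between MYO5B-knockout and control mice (2.01% of all genes called). Between LPA-treated and control mice 5 rose and none fell (2.32%). On the recovered reads edgeR called 0 of the 17 in both (2.82% and 2.4% of all genes), with 10 and 11 at an unadjusted p under 0.05. DESeq2 called 8 in each (11.6% and 9.47%), of which Cd59b was lower than in control mice and the others were higher. Cd59b was named after its values were seen. The median log2 difference of the family was 1.35 and 1.02 in these comparisons, beside 0.29 and 0.41 for all genes, and 0.17 with LPA against vehicle, beside 0.11. Ly6d, a marker of squamous epithelium, measured 5.23 FPKM in control mouse 2, 0.175 FPKM in mouse 4 and 0.921 FPKM in mouse 5. In MYO5B-knockout mice 3, 5, 6 and 7 there were 294, 16.1, 40.5 and 86.8 FPKM of Ly6d. With LPA, mice 1, 4 and 5 had 110, 171 and 357 FPKM, so neither knockout group overlapped with control mice. Its log2 difference from control mice was 5.81 in MYO5B-knockout mice (limma's adjusted p = 0.0274) and 7.36 in LPA-treated mice (limma's adjusted p = 0.0114). The first call was lost without control mice 4 or 5, MYO5B-knockout mice 6 or 7, or LPA-treated mouse 4 (limma's adjusted p between 0.0521 and 0.114), and the second without control mouse 5 or LPA-treated mice 4 or 5 (between 0.0511 and 0.0650).

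Psca, a stomach and prostate antigen of the family, had 0 reads in the control libraries. Vehicle-treated MYO5B-knockout mice 3, 5, 6 and 7 had 14.1, 8.36, 0.341 and 0.773 FPKM of Psca. LPA-treated mice 1, 4 and 5 had 10.5, 16.5 and 10.8 FPKM, and their mean was at least 51.1-fold higher than 3 reads in each control library (limma's adjusted p = 0.0139). Ly6c1 also had 0 reads in control mice, while LPA-treated mice 1, 4 and 5 had 1.45, 3.08 and 5.87 FPKM, with a mean at least 13.8-fold higher than 3 reads (limma's adjusted p = 0.0191) and at least 9.0-fold without mouse 5. Ly6c1 is a leukocyte and endothelial gene as well, and 46.8% of the 31-base stretches of its transcripts also occur in other Ly6 genes. Ly6f, with 0 reads in control mice, lay between 0.529 and 5.42 FPKM in MYO5B-knockout mice, at least 8.69-fold higher than 3 reads (limma's adjusted p = 0.0453) and at least 4.14-fold without MYO5B-knockout mouse 3, one of the libraries with few detected genes. Lynx1, which encodes a modulator of nicotinic acetylcholine receptors, rose to between 0.728 and 1.15 FPKM in LPA-treated mice from at most 0.156 FPKM in control mice (limma's adjusted p = 0.0434). Lypd3, a close structural relative of uPAR in squamous epithelium, which was named after its values were seen, rose to between 0.377 and 1.15 FPKM from at most 0.0399 FPKM (limma's adjusted p = 0.0322).

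These calls rested on single mice in part. With 1 mouse left out, Psca lost its call without control mouse 5 or any LPA-treated mouse (limma's adjusted p between 0.0556 and 0.0650), and Ly6c1 lost it without control mice 4 or 5 or LPA-treated mice 4 or 5 (between 0.0677 and 0.0948). Ly6f and Lynx1 each kept the call in 1 of 10 such fits, that without MYO5B-knockout mouse 3, with adjusted p elsewhere between 0.0535 and 0.156 for Ly6f and between 0.0546 and 0.130 for Lynx1. Lypd3 kept it without MYO5B-knockout mice 3 or 5, with adjusted p elsewhere between 0.0537 and 0.136.

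Among 17 AP-1 and ETS transcription factors, limma called Etv4 and Etv5 higher in MYO5B-knockout than in control mice and none lower (2.01% of all genes called). In the same comparison edgeR called Etv4 alone (2.82%). DESeq2 called 6 (11.6%), of which Elk3 and Fosb were lower in MYO5B-knockout mice and the others were higher. Etv4, an ETS factor of the PEA3 group, measured 0.945 FPKM in control mouse 2, 0.624 FPKM in mouse 4 and 0.334 FPKM in mouse 5. Vehicle-treated MYO5B-knockout mice 3, 5, 6 and 7 had 11.6, 16.9, 6.44 and 3.72 FPKM of Etv4. LPA-treated mice 1, 4 and 5 had 12.5, 5.55 and 11.8 FPKM, so neither knockout group overlapped with control mice. Its log2 difference from control mice was 3.60 (limma's adjusted p = 0.0146) and 3.78 (limma's adjusted p = 0.0126). The first was lost without control mouse 4 or 5 (limma's adjusted p = 0.0560 and 0.0849), and the second without control mouse 5 or LPA-treated mice 1 or 5 (between 0.0594 and 0.0724). Etv5 differed by 3.01 between MYO5B-knockout and control mice (limma's adjusted p = 0.0448), which was kept only without MYO5B-knockout mouse 3 when 1 mouse was left out, with adjusted p elsewhere between 0.0616 and 0.143.

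Of the AP-1 genes, none passed limma's test and edgeR called none. DESeq2 called Fosl1 higher and Fosb lower than in control mice, both in MYO5B-knockout and in LPA-treated mice. Fosl1, the AP-1 member best known from wound-edge cells, did not exceed 0.435 FPKM in control mice and lay between 0.803 and 2.96 FPKM in MYO5B-knockout mice and between 1.67 and 3.90 FPKM in LPA-treated mice. Neither knockout group overlapped with control mice for Fosl1, with limma's adjusted p = 0.115 and 0.0546. Fos lay between 42.0 and 99.3 FPKM in control mice and between 16.1 and 66.0 FPKM in MYO5B-knockout mice, an overlap. Fosb lay between 0.772 and 3.50 FPKM in control mice and between 0.144 and 0.584 FPKM in MYO5B-knockout mice. In LPA-treated mice Fosb lay between 0.240 and 0.401 FPKM. Neither knockout group overlapped with control mice for Fosb (limma's adjusted p = 0.0902 and 0.118). Fosl1, Fosb, Fos and Elk3 were named after their values were seen.

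**Figure D3:**
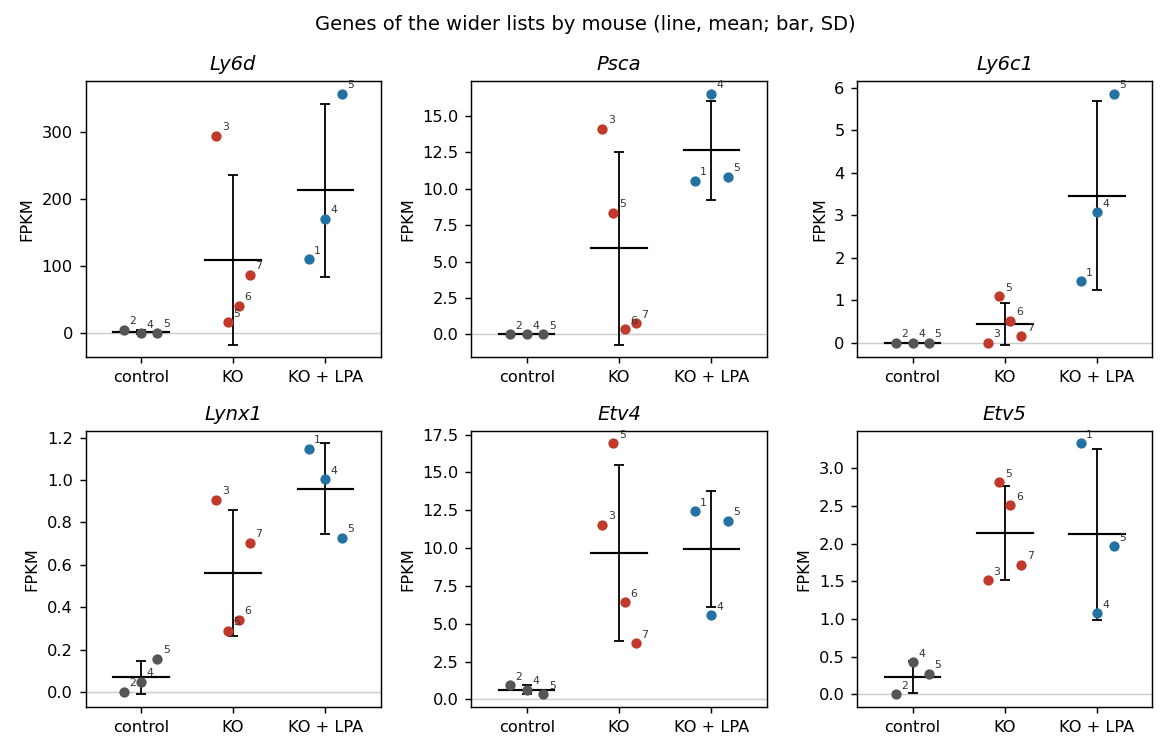
FPKM of 6 genes of the wider lists (vertical axes, each with its own range) in every mouse, by group; points carry the mouse number, the horizontal line is the mean and the bar is the SD over 3 control, 4 MYO5B-knockout (KO) and 3 LPA-treated mice. Etv4 and Etv5 are higher in each MYO5B-knockout mouse than in any control mouse, and Psca and Ly6c1 are at 0 in the 3 control mice.

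In all 7 lists, 84 of 119 genes were fitted, and of those that are not members 5 passed between MYO5B-knockout and control mice, 0 with LPA against vehicle and 7 between LPA-treated and control mice. Without the 2 libraries with few detected genes, the numbers were 8, 0 and 17. Without the 2 libraries whose sex genes go against the label, they were 2, 0 and 6.

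Among the 5 genes whose log2 levels ran most like those of Plaur over the 10 libraries, out of 15728, were Areg (Pearson r = 0.988), Tead4 (0.987), Hs3st1 (0.986) and Anxa10 (0.984). The coefficients are a description over libraries that share 3 groups and their depths. Areg encodes amphiregulin, a ligand of the EGF receptor, and lay between 12.5 and 19.9 FPKM in control mice, between 130 and 341 FPKM in MYO5B-knockout mice and between 342 and 531 FPKM in LPA-treated mice. Areg thus kept the order of Plaur with no overlap. Tead4, a DNA-binding partner of YAP, did not exceed 0.0371 FPKM in control mice, lay between 0.831 and 1.90 FPKM in MYO5B-knockout mice and between 2.46 and 3.63 FPKM in LPA-treated mice.

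The genes most like Mmp10 were Gm26532 (Pearson r = 0.949), Ccr1 (0.936), Col6a1 (0.935), Apoe (0.934) and Spns1 (0.933), over the same 10 libraries. Col6a1, a collagen chain of fibroblasts, lay between 0.0836 and 0.353 FPKM in control mice, between 0.0433 and 0.107 FPKM in MYO5B-knockout mice and between 0.359 and 1.78 FPKM in LPA-treated mice. Apoe, a lipid carrier that macrophages make in quantity, lay between 12.7 and 42.7 FPKM in control mice, between 7.13 and 29.6 FPKM in MYO5B-knockout mice and between 25.2 and 111 FPKM in LPA-treated mice. Ccr1, a chemokine receptor of myeloid cells, had a mean of 0.503 FPKM with LPA and 0.0440 FPKM in MYO5B-knockout mice.

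Many markers of macrophages and fibroblasts were higher with LPA than with vehicle, as Mmp10 was. Of 12 macrophage and monocyte markers 11 were fitted, and 11 of 11 were higher with LPA than with vehicle, with a median log2 difference of 1.10 beside 0.11 for all genes and none past the test. Their summed level was between 21.8 and 88.9 FPKM in control mice, between 16.2 and 41.4 FPKM in MYO5B-knockout mice and between 35.4 and 92.5 FPKM in LPA-treated mice. MYO5B-knockout mouse 3, at 0 FPKM of Mmp10, had a macrophage sum of 41.4 FPKM, above the 35.4 FPKM of LPA-treated mouse 1. That order rested on 1 marker, C1qa, at 29.2 FPKM in MYO5B-knockout mouse 3 and 5.15 FPKM in LPA-treated mouse 1. In control mouse 2, C1qa made up 67.9 of the 88.9 FPKM. Control mouse 2 and MYO5B-knockout mouse 3 are the libraries with few detected genes. Of 12 fibroblast markers 10 were fitted and 9 were higher with LPA, with a median of 1.55 and none past the test. All 12 together summed to between 65.1 and 94.7 FPKM in control mice, where the sum was highest. This sum was between 8.14 and 13.3 FPKM in MYO5B-knockout mice and between 12.1 and 18.6 FPKM in LPA-treated mice. Without Fbln1, which made up most of that sum in control mice, the fibroblast markers summed to between 2.56 and 7.43 FPKM in control mice, between 0.592 and 1.93 FPKM in MYO5B-knockout mice and between 2.28 and 10.0 FPKM in LPA-treated mice. The LPA-treated mouse with the lowest Mmp10, mouse 1, also had the lowest of these sums in its group, and their part in the Mmp10 difference was not tested.

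**Figure D4:**
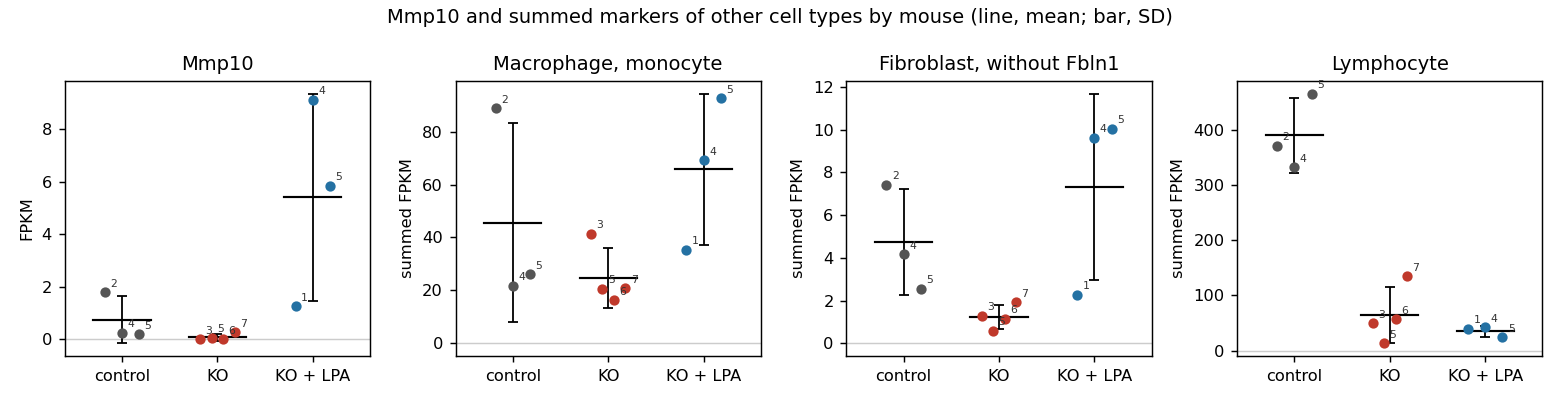
FPKM of Mmp10 and summed FPKM of the marker lists of macrophages and monocytes, fibroblasts (without Fbln1) and lymphocytes (vertical axes) in every mouse, by group; points carry the mouse number, the line is the mean and the bar the SD over 3 control, 4 MYO5B-knockout (KO) and 3 LPA-treated mice. The macrophage and fibroblast sums are high in control mouse 2 and LPA-treated mice 4 and 5, as is Mmp10, while the lymphocyte sum is at least 332.5 FPKM in control mice and at most 135 FPKM in the others. C1qa alone makes up 67.9 of the 88.9 FPKM of the macrophage sum in control mouse 2. In LPA-treated mice 4 and 5 it makes up 17.7 of 69.1 FPKM and 48.6 of 92.5 FPKM.

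The steps of Plaur and Plat between control and MYO5B-knockout mice went with other markers. The 12 lymphocyte markers summed to between 332.5 and 466 FPKM in control mice, to between 13.7 and 135 FPKM in MYO5B-knockout mice and to between 24.0 and 42.2 FPKM in LPA-treated mice. Against control mice, 11 of 12 were lower with vehicle and 10 of 12 with LPA, with median log2 differences of -2.42 and -3.13. In each comparison limma called 3 of them, all lower (Cd79a, Gzma and Cd7 with vehicle, and Cd7, Gzma and Cd3g with LPA), against 2.01% and 2.32% of all genes. Fbln1 fell by 2.97 on the log2 scale in MYO5B-knockout mice (limma's adjusted p = 0.00137). Neutrophil markers summed to at most 0.270 FPKM in control mice, where 8 of 10 had 0 reads, and to between 0.440 and 8.35 FPKM in MYO5B-knockout mice, where Mpo and Elane stayed at 0. Most of the sum in MYO5B-knockout mice 3, 5 and 7 was Ly6g, which is also on the Ly6 family list. Without Ly6g the other 9 neutrophil markers summed to at most 0.270 FPKM in control mice, to between 0 (mouse 3) and 1.18 FPKM with vehicle, and to between 0.422 and 4.94 FPKM with LPA. Endothelial markers summed to between 0.771 and 8.14 FPKM in control mice, between 0.578 and 4.42 FPKM in MYO5B-knockout mice and between 1.82 and 5.78 FPKM in LPA-treated mice. Mast cell markers reached 91.1 FPKM in LPA-treated mouse 1 and at most 26.9 FPKM in the other libraries, and smooth muscle markers lay between 3.83 and 10.0 FPKM throughout. Of the 12 epithelial markers, Krt18 and Krt19 rose between LPA-treated and control mice (log2 differences of 2.46 and 1.43, limma's adjusted p = 0.0316 and 0.0483). In bulk RNA, fewer cells of a type and less RNA per cell cannot be told apart, and the part of these markers in the results for Plaur and Plat was not tested.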

How the data were processed

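RNA of jejunal epithelial cells from 10 mice was sequenced as poly-A mRNA. Per the labels, STAR 2.5, TopHat, HTSeq 0.6.1 and DESeq2 were used on GRCm38. The authors deposited FPKM for 35275 genes and counts for the genes of their own comparison lists, whose fold changes and p-values were not used. FPKM times gene length gave whole reads for 100% of values (tolerance 0.05), and 63 of 63 deposited counts equalled them.

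The log2 of FPKM + 0.1 of the 15729 genes whose mean reached 0.1 FPKM was fitted with limma 3.58.1 (R 4.3.3) in 1 model of 3 groups, with trended variance, two-sided tests and Benjamini-Hochberg adjustment over all genes. The script was tested on simulated data. Each replicate is a mouse, and the labels name no batch. Gene coordinates are those deposited, of which 1 of 7 is identical in GENCODE M21. Counting intervals (95%) and the floor of 3 reads cover counting error only. edgeR 4.0.16 and DESeq2 1.42.0 on recovered reads, other scalings, filters and left-out mice were alternatives.

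The members and gene lists were chosen with earlier results of these data known. Named genes are the 7 members, up to 4 called genes per list and comparison by size of change (otherwise the 2 most abundant), and the 5 genes most correlated with Plaur and with Mmp10. Some genes of the lists are counted but are not reported here by name.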

Additional observations from a re-analysis of the deposited data

Results flagged for a closer look

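Of 19 genes checked in the 4 MYO5B-knockout mice, 5 had a mouse whose distance from the nearest other, as a share of the range, exceeded the 95% critical value of Dixon's test, where chance gives about 1 in 20. Plat was at 10.8 FPKM in MYO5B-knockout mouse 5, and the next mouse was at 2.77 FPKM. Mmp7 was also highest in that mouse, at 63.0 FPKM, with the next at 41.7 FPKM. In MYO5B-knockout mouse 3, which is among the 2 libraries with few detected genes, Timp1 was at 2.38 FPKM with the next mouse at 0.131 FPKM, and Mmp14 was at 96.7 FPKM with the next at 24.6 FPKM. Itga3 was lowest in that mouse, at 37.8 FPKM, with the next at 67.4 FPKM.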

How the results depend on the processing

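Plaur kept its direction in all alternatives of the 3 comparisons, and its difference between MYO5B-knockout and control mice, 4.03, lay between 3.82 and 4.18 with 1 mouse left out and was 3.45 with a pseudocount of 1. Mmp10 was higher with LPA than with vehicle in 22 of 22 alternatives, with log2 differences between 4.16 and 5.54 with 1 mouse left out, 2.32 and 6.71 with pseudocounts of 1 and 0.01, and 5.91 with DESeq2. The sign for Timp1 changed in 9 of 21 alternatives between MYO5B-knockout and control mice, and that for Mmp13 in 5 of 22 between LPA-treated and control mice.

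The number of genes of the 7 lists, members aside, that passed between MYO5B-knockout and control mice was 5 of 78 (6.41%, against 2.01% of all genes). It was 3 with no filter (0.836% of all genes), 8 after quantile normalization (5.11%), 1 with only the 2 groups compared (0.35%), 46 with array weights (47.1%, an estimate that stopped before convergence), 2 with edgeR (2.82%), 18 with DESeq2 (11.6%), 8 (6.52%) without the 2 libraries with few detected genes, 2 (2.03%) without the 2 whose sex genes go against the label (chosen after seeing the data), and between 1 and 6 with 1 mouse left out (0.28% to 2.85%; 1 without control mouse 4 or 5, 2 without MYO5B-knockout mouse 7 or LPA-treated mouse 4, and 3 without MYO5B-knockout mouse 5 or 6 or LPA-treated mouse 1 or 5). With LPA against vehicle it was 0, and 4 with array weights (1.07% of all genes). Between LPA-treated and control mice it was 7 (2.32% of all genes), and 36 with array weights (29.4%), 2 with edgeR (2.4%), 18 with DESeq2 (9.47%), 17 (9.98%) without control mouse 2 and MYO5B-knockout mouse 3, and between 1 and 13 with 1 mouse left out (0.481% to 4.57%; 1 without control mouse 5 or LPA-treated mouse 5, 2 and 3 without LPA-treated mice 4 and 1, 4 without control mouse 4, 13 without MYO5B-knockout mouse 3). The cause of these shifts was not tested. A replicate block was possible for LPA-treated and control mice only, which share mouse numbers 4 and 5, and gave 14 (11.3%). The deviations of same-numbered mice correlated at 0.104 and -0.355, and those of mice with different numbers at -0.409 and 0.162. So few pairs cannot show whether same-numbered mice share more than a number. Genes near the level of 1 read, 0.0409 to 0.0913 FPKM at 1 kb, such as Mmp3, are limited by depth.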
